A study of Arabidopsis thaliana with 8 samples.

Results

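The 205 genes described here are the loci from AT2G46160 to AT2G48160 on the Agilent array, the end of chromosome 2 by locus number, out of 25643 loci with a probe in use. They were chosen by locus name after their levels in the strain ExTQ019 had been seen to lie below those of the other strains. The contrast of ExTQ019 with the others therefore chose the genes, and its values below are a description with no test. For these genes, tests are given only for contrasts among the 7 other strains, which the choice did not use.

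Ex-TAQing rearranges a plant genome from within. A gene for a restriction enzyme is introduced, here that of MseI, and mild heat activates the enzyme, which cuts the chromosomes at many sites that the cell then rejoins. The 8 samples came from leaves of 8 diploid Arabidopsis thaliana strains, each derived from a plant that carried the MseI gene and had been heated for 3 h at 33 °C. The progeny grew for 4 weeks on sucrose medium in a cycle of 16 h light and 8 h dark, and each strain had 1 array. ExTQ002, ExTQ013, ExTQ015 and ExTQ003 shared a slide of 4 arrays, and ExTQ005, ExTQ016, ExTQ018 and ExTQ019 shared the other. All 8 form 1 group of treated lines, with no untreated line or unheated control used here. The labels do not say if single plants or pooled plants were harvested, nor at which hour. The description fields number the strains differently from the titles and give ExTQ018 and ExTQ019 the same number. The titles were used.

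Between 61.3% and 67.7% of probes were well above background per array, and repeated spots of 1 probe had a median SD of 0.055 to 0.084 on the log2 scale. All 8 leaf markers were well above background in every strain, with mean levels of 5.78 to 6.22 in the 7 others and 5.74 in ExTQ019. Transcripts of flowers and pollen were also present. Of 9 floral and pollen markers, 4 were well above background in ExTQ002, 6 each in ExTQ013, ExTQ015 and ExTQ019, and 9 each in ExTQ003, ExTQ005, ExTQ016 and ExTQ018. The sum of their intensities, relative to the 75th percentile of the array, ran from 0.733 in ExTQ002 to 25.3 in ExTQ018 and was 6.05 in ExTQ019. In these whole-tissue samples, fewer cells of a type and less RNA per cell cannot be told apart.

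The chromosome end holds genes of many functions that are neighbours rather than partners. Among them are CCA1 and PRR9 of the circadian clock, in which CCA1 is a morning repressor and PRR9 a pseudo-response regulator that in turn represses CCA1. Others build chloroplasts, cell walls and pollen tubes, conduct ions, or take up and recycle nutrients. In a diploid, each gene is normally present on both homologous chromosomes, and the amount of its RNA depends on the copies present and on its regulation.

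Of the 205 genes, 194 were well above background on at least 1 array and 170 on all 8, while 11 were not on any. The counts and medians below use the 177 genes well above background in at least 6 of the 7 strains other than ExTQ019, a filter that ExTQ019 does not enter. A level is the log2 intensity minus the 75th percentile of its array, and a difference in ExTQ019 is its level minus the median of the 7 others, centred on the same quantity over all 19576 genes that passed the filter. The other 17 genes entered only the limma fits over 22381 genes, and 1 of them, SDR5, entered only through ExTQ019.

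In ExTQ019 the 177 genes had a median difference of -0.94, or 52.3% of the level in the other strains. The central genes, from the lower to the upper quartile, lay between -1.42 and -0.60, and the whole range ran from -7.50 to 4.40. Below 0 were 161 of 177 genes, against 50% of all genes by construction. Differences of -0.5 or less were found in 139 genes (78.5%, against 25.6% of all genes). Of the 177, 100 lay between -1.5 and -0.5, 39 below -1.5, 22 between -0.5 and 0, and 5 above 1. ExTQ019 lay below all 7 others in 134 genes, against 29.3% of all genes, and above all of them in 9, against 29%. The limma fit over all genes put 60 of the 194 genes past its threshold on the lower side (an adjusted p of 0.05 and a log2 change of 1), against 6.3% of all genes, and 3 on the higher side, against 4.4%. All 60 passed the filter and had differences from -3.85 to -0.94, with a median of -1.32. Of the 3, 2 passed the filter and 1 did not. All these shares restate the contrast that chose the genes, and nothing is read from them. Against only the 3 strains of its own slide, the median in ExTQ019 was -0.97.

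**Figure D1:**
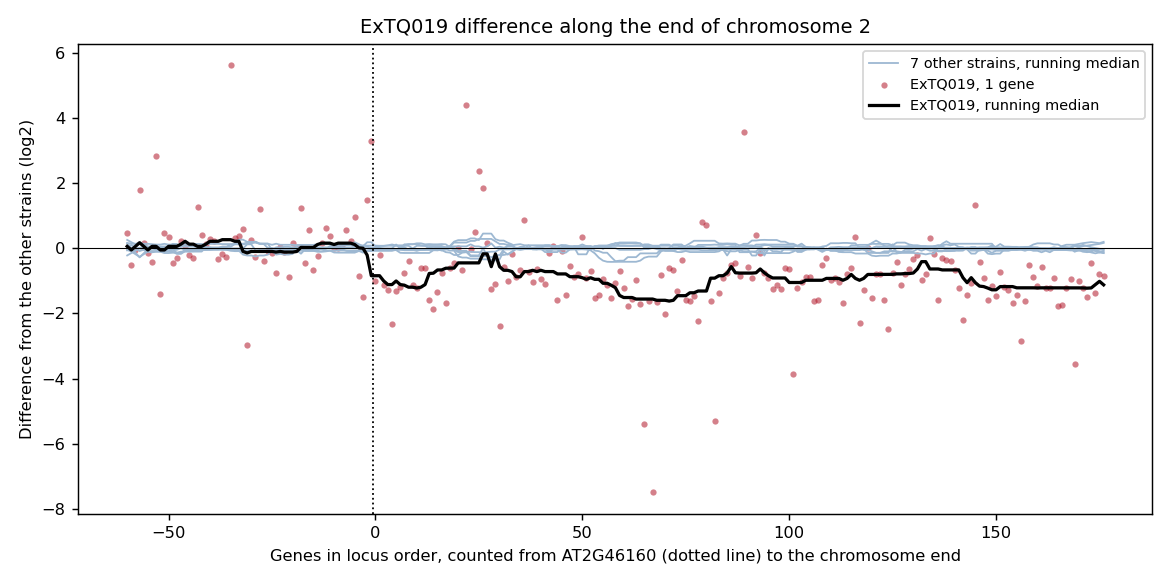
Difference of ExTQ019 from the 7 other strains (log2, vertical axis) for 60 genes before and the 177 genes after the proximal end, in locus order (horizontal axis, genes counted from AT2G46160, dotted line). Points are genes, the black line is the running median of 15 genes, and the blue lines are running medians of the 7 other strains, which stay near 0 while the black line lies below 0 beyond the dotted line.

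The lower values began near AT2G46160 and ran to the last gene. Among the 5 genes just inside the proximal end, AT2G46160 differed by -1.0, AT2G46170 by -0.21, GC4, which encodes a golgin of the Golgi apparatus, by -1.13, AT2G46200 by -1.28, and SLD2, a sphingolipid base desaturase, by -2.31. Among the 5 just outside, AT2G46150 differed by 3.31, LEA27 by 1.47, KPHMT1, an enzyme of pantothenate synthesis, by -1.5, LCBK2, a sphingoid base kinase, by -0.84, and BPS2 by 0.95. Both KPHMT1 and LCBK2 had ExTQ019 levels (-2.23 and -0.44) below all 7 others (-0.89 to -0.60 and 0.22 to 0.55). The 25 genes before the interval had a median of 0.03. The 5 most distal genes were AT2G48100 at -1.51, the Mediator subunit gene REF4 at -0.46, PAC, which is needed for chloroplast development, at -1.38, the glutathione peroxidase gene GPX4 at -0.80 (-0.03 with normexp background correction) and HULK2 at -0.85.

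Along the stretch the size of the shift varied little between sections of 59 genes, with medians of -0.87 from AT2G46160 to AT2G46780, -0.97 from AT2G46790 to AT2G47480 and -1.01 from AT2G47485 to AT2G48160. The rest of chromosome 2 had a median of 0.06 over 2805 genes. ExTQ019 had 3 more stretches with medians of similar size, -0.92 over 535 genes from AT3G11680 to AT3G17810, -0.94 over 188 genes from AT3G18560 to AT3G20830 and -0.87 over 1481 genes from AT5G49690 to AT5G67640. These stretches too were marked out for being lowered in ExTQ019, so their medians are a description with no test. Centring on the genes outside all 4 stretches put the chromosome 2 median at -1.01.

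Probes named by a chromosome interval in place of a locus, which the choice of genes did not use, gave a second reading of the same array. Chromosome 2 positions are those printed on the array, and the sources used here do not give their genome build. Of the interval probes that passed the same filter, the 15 lying from 17058754 to 17959961 had a median difference of -0.00 in ExTQ019, and the 23 from 18054948 to 18914242 had -0.16. The 17 from 19011723 to 19561278 had a median of -0.80, with 16 below 0. Like most of the 23, most of these 17 were dim, with ExTQ019 levels below -4. The lowest, -7.88, was close to the dimmest detected probe of that array, at -8.06. Their differences under another background correction are not given here. Of these 17, 11 lay below all 7 other strains, against 29.3% of all genes. In the ranges before, 4 of 15 and 7 of 23 lay below all others, and 8 and 14 were below 0. In each of the 4 genes of the stretch with 2 probes, both probes gave negative differences, with -1.67 and -1.34 for AGP16, -1.17 and -0.92 for AT2G47410, -1.01 and -1.04 for RPH1, and -1.15 and -0.85 for HULK2.

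The 177 genes were about as variable in the other strains as the rest of the genome. The SD over the 7 others was under 0.2 in 70 of them (39.5%, against 42.1% of 19399 other genes) and 0.5 or more in 39 (22%, against 22.3%). The 70 steady genes had a median difference of -0.89 in ExTQ019 with an interquartile range of 0.54, and 68 of them were below 0. The 39 variable genes had a median of -1.07 with an interquartile range of 1.19, and 32 were below 0. Genes with a mean level above 0 had a median of -0.92 (87 genes), those between -4 and 0 had -0.89 (66 genes), and the 24 dimmest had -1.45.

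**Figure D2:**
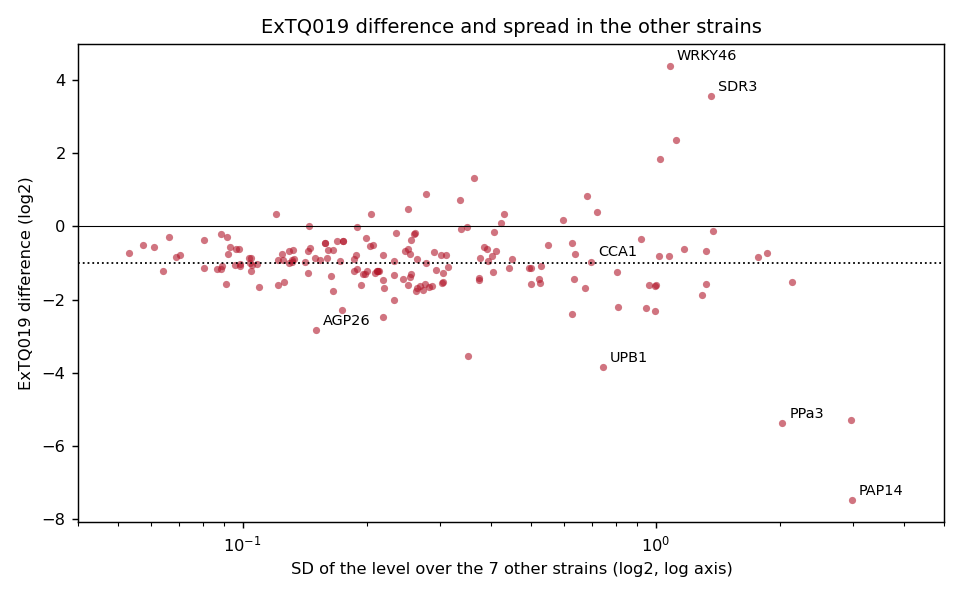
Difference of ExTQ019 (log2, vertical axis) against the SD of the level over the 7 other strains (log2, log axis) for the 177 genes, 1 point per gene, with a dotted line at -1. Most genes with a small SD lie in a band near the dotted line, with quartiles of -1.15 and -0.61 for an SD under 0.2. Some lie well below it, such as AGP26 at -2.84 with an SD of 0.15. The values farthest from the line, such as PAP14 at -7.50 and WRKY46 at 4.40, belong to genes with a large SD.

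In ExTQ019, the 9 chloroplast and photosynthesis genes with a name in the reference had a median difference of -1.38. All 9 lay below the 7 others, where 29.3% of all genes and 75.7% of the stretch did. This count too comes from the contrast that chose the stretch. CRR6, needed to assemble the chloroplast NDH complex, was at 0.79 in ExTQ019 against 2.31, 2.49 and 2.60 (lowest, median and highest of the others), a difference of -1.67. DEG2, a chloroplast protease, was at 1.23 against 2.66, 2.88 and 3.04. These groups do not overlap. PSI-P, a thylakoid membrane protein, was at 3.90 against 4.72, 5.49 and 5.52, and Tic20-II, of the inner envelope import machinery, at -1.52 against -0.04, 0.11 and 0.52. CP12-1, a regulator of Calvin cycle enzymes, differed by -0.98, CAO (AT2G47450) by -0.78 and PHR2 by -0.41. The leaf markers outside the stretch differed by -0.40 to -0.16.

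Cell wall, pollen and cuticle genes had a median difference of -1.38 over 8 genes. AGP26, an arabinogalactan protein, was at -0.60 in ExTQ019 against 2.03, 2.27 and 2.40, which is 14.0% of the level elsewhere. AGP16, of the same class, differed by -1.67, the pectin acetylesterase gene PAE3 by -1.31, and SETH6, known from pollen, by -1.46. The cuticle gene LACS1 was at 0.17 against -0.12, 1.46 and 2.11, within the range of the others.

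VGD1 and VGDH1, pollen tube genes, had the largest SD over the other strains in the stretch, 5.50 and 4.02. VGD1, a pectin methylesterase of pollen tubes, was at -9.87 in ExTQ002, -10.13 in ExTQ013, -8.78 in ExTQ015, -1.08 in ExTQ003, 0.19 in ExTQ005, 0.88 in ExTQ016, 2.09 in ExTQ018 and -8.55 in ExTQ019. It was well above background in 4 of the 7 others and not in ExTQ019. Its homolog VGDH1 was at -9.24, -9.41, -8.77, -3.74, -2.45, -1.20, -0.22 and -9.88 in the same order, and the adjacent AT2G47050 at -6.09, -6.27, -5.81, -2.11, -1.20, -0.28, 0.64 and -7.44. All 3 were high in ExTQ003, ExTQ005, ExTQ016 and ExTQ018 and low in ExTQ002, ExTQ013, ExTQ015 and ExTQ019. Where ExTQ019 was not well above background, a bound is given that replaces its level by the dimmest detected probe of that array. The bound applies to the levels as defined above and need not hold with normexp or on the deposited values. For VGD1 and VGDH1 it is no strict bound. The mean of the 7 others includes ExTQ002, ExTQ013 and ExTQ015, where neither gene was well above background. With ExTQ019 set at that probe, this mean was 18.9-fold higher for VGD1 and 8.30-fold higher for VGDH1. The VGD1 level of ExTQ019 lay above those of ExTQ002, ExTQ013 and ExTQ015, and its VGDH1 level below them. The pollen markers outside the stretch, PGA4, PTEN1 and PPME1, were well above background in the same 4 strains and not in ExTQ002, ExTQ013, ExTQ015 or ExTQ019. The part of pollen content in the ExTQ019 values of these genes was not tested. The 3 genes are neighbours, and whether their probes share target sequence was not examined.

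Among the nutrient genes, PAP14, a purple acid phosphatase, was at 1.47 in ExTQ002, 1.07 in ExTQ013, -1.45 in ExTQ015, -2.82 in ExTQ003, -5.62 in ExTQ005, -5.28 in ExTQ016, and lastly -5.0 in ExTQ018. In ExTQ019 it was at -10.35, not well above background, and on these levels at least 46.5-fold lower than the mean of the others. Its SD over the 7 others was 2.98. The PAP14 difference was -7.50 here, -1.87 with normexp, -2.33 on the deposited values and -4.98 against the strains of its own slide, and with normexp UPB1 (-3.33), AGP26 (-2.75) and AT2G47050 (-2.07) were lower than it. The 15 phosphate starvation genes outside the stretch had mean levels of 2.12 in ExTQ002, 2.13 in ExTQ013, -0.20 in ExTQ015, -0.59 in ExTQ003, -1.59 in ExTQ005, -1.34 in ExTQ016, -1.92 in ExTQ018, then -2.74 in ExTQ019. Both PAP14 and the mean of these genes were highest in ExTQ002 and ExTQ013 and lowest in ExTQ019. The single genes varied. Of the 13 that passed the filter, 8 lay below all 7 others in ExTQ019, against 29.3% of all genes. Positive differences were found in 2, PHT1;5 at 1.91 and PLDP2 at 0.94. PAP17, at -0.39, lies in a lowered stretch of chromosome 3. The part of phosphate status in the PAP14 value was not tested. Of the 15, SRG3 alone was called lower in ExTQ019 by limma, at -3.85, where 6.3% of all genes were. ZAT, a vacuolar zinc transporter, was steadier, at 1.24 against 2.06, 2.48 and 2.69. MHX, a vacuolar cation exchanger, differed by -1.13 and the boron exporter gene BOR1 by -0.56.

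The clock and light genes of the stretch, 6 with a name, all had negative differences with a median of -0.84. RFI2, a RING protein of red-light signalling, differed by -1.60. CCA1 was at -1.03 in ExTQ002, -0.70 in ExTQ013, -0.25 in ExTQ015, 0.49 in ExTQ003, 0.71 in ExTQ005, 0.37 in ExTQ016, 0.66 in ExTQ018 and -0.63 in ExTQ019. The ExTQ019 value, 51.2% of the median elsewhere, lies within the range of the others, above ExTQ002 and ExTQ013. PRR9 was at -2.46 in ExTQ019 against -1.94, -1.72 and -1.12, below all 7. The shade-response factor PIL1 differed by -1.62, with an SD of 1.00 elsewhere, and SPA1, a repressor of light responses, by -0.61. Of 19 clock genes outside the stretch, limma called 5 lower in ExTQ019, against 6.3% of all genes, and 2 higher, against 4.4%. The higher ones were LHY, the close partner of CCA1, at -2.48 against -4.62, -4.29 and -3.82, and RVE8 at -0.92 against -3.34, -2.79 and -2.35. Of the 5 lower ones, TOC1, PRR3 and BOA lie in the lowered stretch of chromosome 5, and ELF4 and PCL1 lie in none of the 4 stretches.

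**Figure D3:**
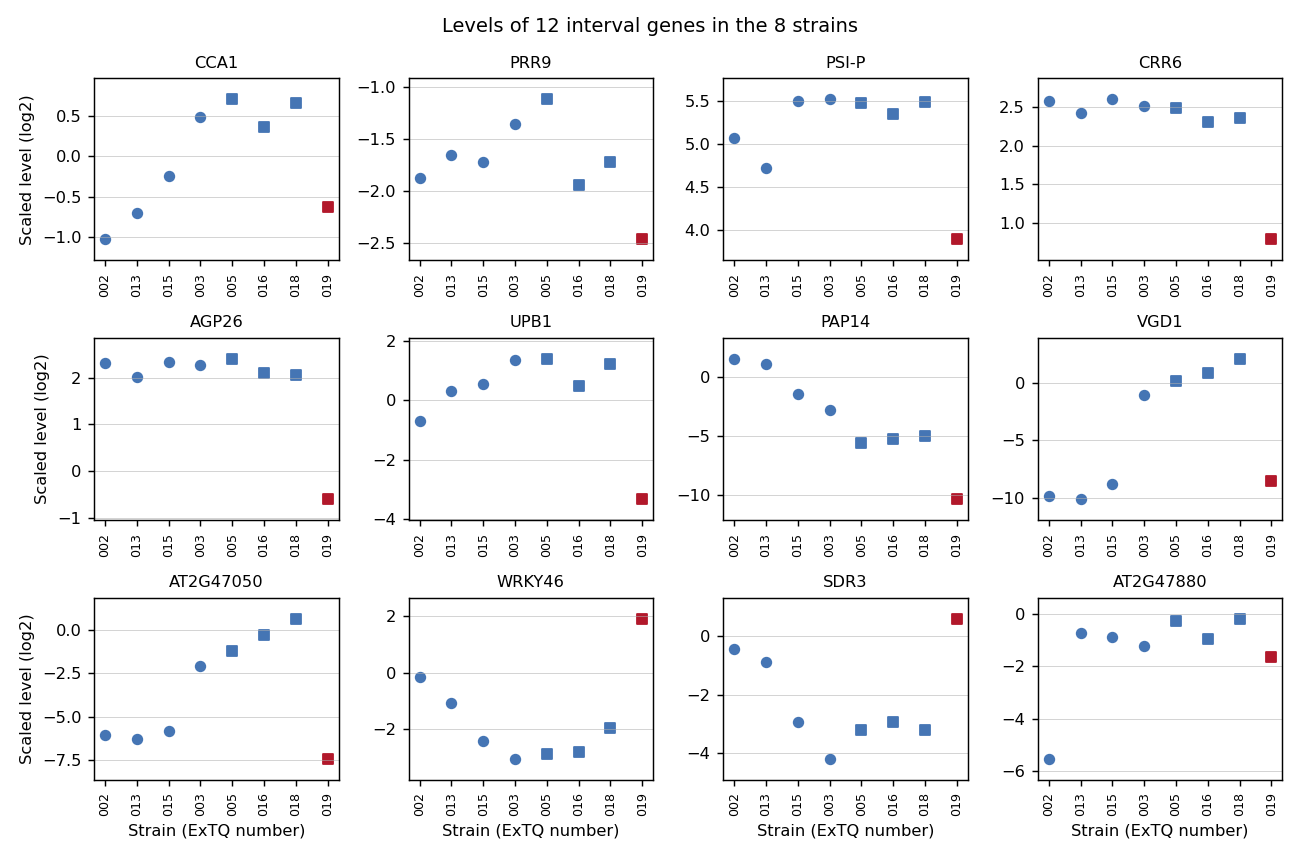
Scaled log2 level (vertical axes, each with its own range) of 12 genes of the stretch in each of the 8 strains (horizontal axes, number after ExTQ), with circles for the first slide, squares for the second and ExTQ019 in red. AGP26 and CRR6 are level in 7 strains and low in ExTQ019, CCA1 of ExTQ019 lies within the range of the others, WRKY46 and SDR3 are highest in ExTQ019, and AT2G47880 is low in ExTQ002.

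The 15 named transcription factor genes that passed the filter had a median difference of -0.63. UPB1, a bHLH factor known from the balance of reactive oxygen in roots, was at -3.33 in ExTQ019 against -0.69, 0.56 and 1.39, which is 6.93% of the level elsewhere. NGA1, which shapes leaf margins, differed by -1.62 and the cytokinin response factor gene CRF5 by -1.34. WRKY46, a factor of defence and drought responses, was at 1.91 in ExTQ019 against -3.08, -2.46 and -0.17, the highest difference of the stretch at 4.40. Among the others it was highest in ExTQ002 and ExTQ013.

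Among other genes with positive differences, SDR3, a short-chain dehydrogenase, was at 0.59 against -4.20, -2.95 and -0.43. The adjacent cation channel genes CNGC3 and CNGC11 differed by 2.37 and 1.84. CNGC3 was at 2.77 in ExTQ019 and 2.76 in ExTQ002, and CNGC11 was at -0.37, within the range of the others (-2.71 to 0.00). CNGC12, next to them, differed by 0.17. ABCC4, a transporter of guard cells, was at 1.64 against -0.27, 0.35 and 0.82, above all of them. The list of channels, receptors and defence had 4 of 8 genes below 0 and a median of -0.11, and PTI1-4, a signalling kinase, differed by -1.36. The remaining genes among the 10 with the highest differences were AT2G46535 at 0.88, the auxin transporter gene ABCB4 at 0.82, AT2G47010 at 0.73, AT2G46420 at 0.49 and the galactinol synthase gene GolS1 at 0.40. Besides PAP14, AT2G47050, UPB1, AGP26 and SLD2, the 10 lowest differences included PPa3, a pyrophosphatase, at -5.38 and AT2G48060 at -3.55. The rest were AT2G47560 at -2.47, AT2G46490 at -2.40 and AT2G47480 at -2.29. Neither PPa3 nor AT2G48060 was well above background in ExTQ019. On these levels AT2G48060 was at least 3.19-fold lower. For PPa3 the mean of the others was 9.79-fold above the dimmest detected probe of ExTQ019. That is no strict bound, since the mean includes ExTQ015 (-8.24), where PPa3 was not well above background. Of 94 named genes with a value under both background corrections, 24 had a difference smaller by over 1.5 times with normexp. With normexp, PPa3 differed by -0.80, AT2G48060 by -0.18, AT2G47050 by -2.07, AT2G46490 by -0.39, AT2G47480 by -0.43, SLD2 by -1.36, PIL1 by -0.49 and IAA20 by -0.70. With the same correction ASY3, described below, differed by -0.28 and GPX4 by -0.03, while AGP26 (-2.75), UPB1 (-3.33), WRKY46 (3.86) and CRR6 (-1.63) stayed closer to the values above.

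Of 8 translation, splicing and protein turnover genes, RS31a, an SR splicing factor, at -1.57, SWA1, of the nucleolus, at -1.21 and DIM1A, an rRNA methylase, at -1.04 had the lowest differences of the 7 that passed the filter. UBQ6, a ubiquitin extension gene, was at 4.01 against 4.42, 4.54 and 4.58, a difference of -0.50 with an SD of 0.06 elsewhere. UNE5 was above the others at 0.35. Among 5 mitochondrial genes, OXA1L, an inner membrane insertase, differed by -1.09, SDH4 of respiratory complex II differed by -1.0, and NDT1 by -0.00. All 5 chromatin and meiosis genes lay below the 7 others, where 29.3% of all genes and 75.7% of the stretch did. This count too comes from the contrast that chose the stretch. ASY3 of the meiotic chromosome axis differed by -1.45, the cohesin gene SCC3 by -0.56 with an SD of 0.06 elsewhere, and SWI3A, of a chromatin remodelling complex, by -0.63. Hormone genes had a median of -0.77 over 8 genes, with IAA20 at -2.23 and the jasmonate conjugation gene JAR1 at -0.45. Heat, drought and oxidative stress genes had a median of -0.59 over 6 genes, from TSPO at -2.21 to GolS1 at 0.40. BAG6, a heat-inducible co-chaperone, differed by -0.38 with an SD of 0.08.

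**Figure D4:**
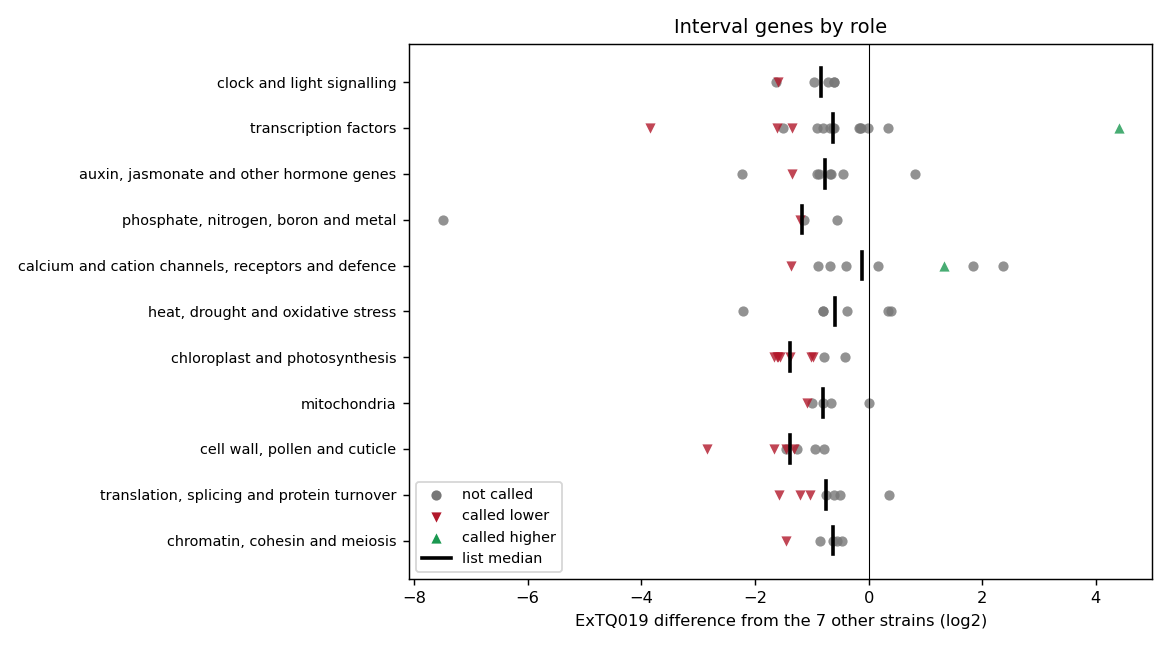
Difference of ExTQ019 from the median of the 7 other strains (log2, horizontal axis) for the genes of 11 role lists (vertical axis) that passed the filter, with marks for genes past the limma threshold on either side, which describe the contrast that chose the genes, and a black line at the median of each list. Every list median is below 0, from -1.38 for chloroplast genes to -0.11 for channels, receptors and defence.

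In the 7 other strains the medians of the same genes were near 0. Each was compared with the remaining 6, with ExTQ019 left out, and the medians of the stretch lay between -0.02 and 0.02. Differences of -0.5 or less were found in 19.1% of the stretch in ExTQ002 against 19.6% of all genes, in 9.55% against 10.5% in ExTQ013, in 11.9% against 9.45% in ExTQ015 and in 7.91% against 8.6% in ExTQ003. The shares were 7.91% against 6.33% in ExTQ005, 9.04% against 9.15% in ExTQ016 and 6.21% against 5.21% in ExTQ018. In each of the 7 strains the share in the stretch was thus near that of all genes.

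**Figure D5:**
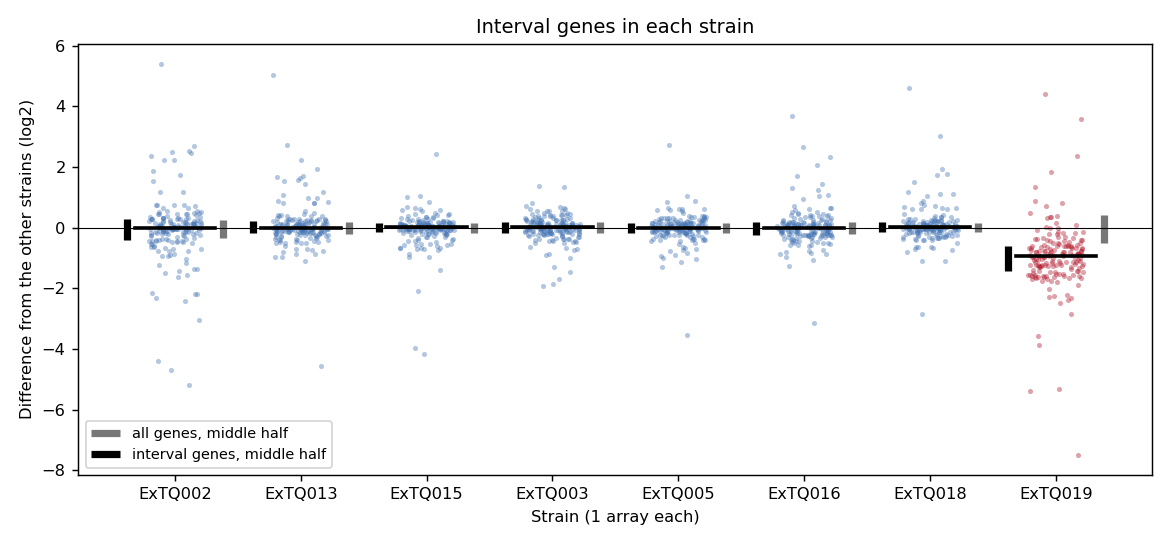
Differences of the genes of the stretch in each strain (log2, vertical axis; 1 point per gene) from the other strains, with a black line at the median, a black bar from the lower to the upper quartile of these genes and a grey bar for all genes. The medians are between -0.02 and 0.02 in 7 strains and -0.94 in ExTQ019.

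Over the 7 strains, limma tested 1351 strain and gene combinations in the stretch and called 2 (0.148%, against 0.282% of all combinations). AT2G47880 was at -5.52 in ExTQ002 against -0.71 ± 0.40 (SD, n = 6) in the remaining strains, which ran from -1.20 to -0.19, and at -1.64 in ExTQ019. The difference of -4.81 ± 0.40 (SE) had a limma adjusted p of 0.0193, and 0.401% of all genes were called lower in ExTQ002. The call was lost without ExTQ005, ExTQ016 or ExTQ018 (limma adjusted p of 0.0508 to 0.0516), against the strains of its own slide (0.261) and with normexp, where the difference was -3.10 (0.0559). AT2G46460 was at -6.63 in ExTQ016 while none of the 6 others was well above background (-9.64 to -8.55). On these levels it was higher by at least 1.90-fold, where 1.41% of all genes were called higher in ExTQ016. The gene was tested only because it was well above background in ExTQ016, so its call is given as a description. With normexp background correction the difference was 0.14 and on the deposited values 0.22, neither of them called. That call was lost in 5 of the 6 fits that left out a strain. CYP709B1, a cytochrome P450 with the next largest spread after VGD1 and VGDH1, stood at -0.17 in ExTQ016, -6.57 in ExTQ019 and -9.91 to -6.01 in the other 6. It was called in ExTQ016 only with normexp and on the deposited values.

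Between the slides, again without ExTQ019, limma called 1 of 193 genes of the stretch. AT2G46490 was at -6.62 ± 0.15 (SD, n = 3) on the slide of ExTQ005, ExTQ016 and ExTQ018 and at -5.46 ± 0.096 (SD, n = 4) on the other, a difference of -1.16 ± 0.11 (SE) with a limma adjusted p of 0.0261, where 0.0316% of all genes were called in that direction. The groups do not overlap, and ExTQ019, on the slide with the lower values, was at -7.95. The call was lost in 5 of the 7 fits that left out a strain, with limma adjusted p from 0.0132 to 0.11. With normexp the difference was -0.34 and on the deposited values -0.46, neither of them called.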

How the data were processed

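RNA of 8 strains was hybridised to 1-colour Agilent 4x44K arrays. Total RNA (200 ng) carried Cy3, per the labels' protocols, while their molecule field names genomic DNA. Intensity values are the processed signals of Agilent Feature Extraction 11.0.1.1, per the file headers. The deposited values of the whole series are log2 values. They correlate at 0.997 or more with the array of the same sample and at 0.994 or less with any other, have column medians near 7.64, and the sources used here do not give how they were made.

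Processed intensities were put on the log2 scale and scaled by the 75th percentile of each array. Of 37478 probes, 34 were left out for outlier marks. Each gene took its brightest probe by mean. The values of 1 strain against the others were fitted in R 4.3.3 by limma 3.58.1, with eBayes moderation and p adjusted by Benjamini-Hochberg over all tested genes, where a lone array is assumed to vary as the others do. No second sample of a strain exists, so p-values rest only on the spread between strains. Differences of strain, plant and array cannot be told apart in it. The number of arrays limits the precision. The normexp alternative used the spot median, since no spot mean was among the columns. Figures used Python 3.11.15 and matplotlib 3.10.9. The fits were tested on simulated data.

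Members, lists and tests were chosen with earlier results of these data known. Of the 205 loci, 201 are in the reference gene table and 111 have a name there; role lists hold only named genes, and the other genes are given by ID without a role. Named genes were CCA1, PRR9, PAP14, the 10 lowest and 10 highest differences, genes called in another strain, the 5 genes at each side of the proximal end and the 5 most distal, the 5 with the largest SD, and list members by size of difference and by level. No probe sequence was used.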

Additional observations from a re-analysis of the deposited data

Results flagged for a closer look

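The check took the 36 genes of the stretch named by the rule, without those named only as list members. Of these, 14 had 1 strain apart from the other 7. The measure was the gap from that strain to its nearest neighbour over the whole range of the 8 values. Chance alone sets about 1 in 20 groups apart, but the genes were named partly for these values, so the count is not set against that share. The 11 gaps of ExTQ019 describe the contrast that chose the stretch, AT2G47880 and AT2G46460 were named for their calls, and CYP709B1 for its SD. Across the 177 genes that passed the filter, ExTQ019 was apart and lowest in 81.

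ExTQ019 was apart and lowest for AGP26 (0.875), GC4 (0.839), AT2G48100 (0.813), AT2G47560 (0.802), AT2G47480 (0.799), AT2G48060 (0.758), AT2G46160 (0.735), AT2G46200 (0.721), HULK2 (0.638), PAC (0.610) and UPB1 (0.559). ExTQ002 was apart and lowest for AT2G47880 (0.728). ExTQ016 was apart and highest for CYP709B1 (0.600) and AT2G46460 (0.594).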

How the results depend on the processing

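The median difference in ExTQ019 stayed negative under every alternative run, at -0.70 with normexp, -0.73 on the deposited values, -0.81 with no filter, -0.97 against the same slide, -0.97 with the mean as reference, -0.97 with no centring and, as an alternative chosen after seeing the data, -1.01 when centred outside the 4 stretches. Leaving out each other strain gave -0.98 to -0.92. The count called lower, 60, was 47 to 80 under the other settings and 55 to 68 with a strain left out. Calls in the other strains, 2 in all, numbered 1 with normexp (CYP709B1, with both original calls lost), 1 with slide as a block (AT2G47880) and 0 against the same slide, and ran from 0 to 12 with a strain left out, the 12 without ExTQ013 and 0 without ExTQ002, ExTQ005, ExTQ016 or ExTQ018. The 1 call between slides was 0 with normexp and 0 on the deposited values, and ran from 0 to 8, the 8 without ExTQ003 and 0 without ExTQ002, ExTQ013, ExTQ015, ExTQ016 or ExTQ018. Against the same slide and with a strain left out, fewer arrays enter the fit, and the cause of the other changes was not tested. These calls thus depend on single arrays. The sign of the ExTQ019 difference turned under at least 1 alternative for CPC, MYB2, NDT1, AT2G46170 and CYP709B1, none of which was called in ExTQ019. Genes near background give bounds at most, which need not hold with normexp or on the deposited values. No paired analysis was possible because all samples form 1 group of different strains.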
